A study of Mus musculus with 22 samples.

Results

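The genes described here encode the protein subunits of the mitochondrial respiratory chain and ATP synthase, and they come from 2 genomes. All protein-coding genes of mitochondrial DNA were taken, together with every protein-coding nuclear gene whose symbol starts with a subunit name of complexes I to V (Nduf with the letter a, b, c, s or v and a digit, Sdha to Sdhd, Uqcr, Cox4 to Cox8 or Atp5), which leaves out assembly factors named Ndufaf or Sdhaf. The rule found 92 of the 46078 genes in the count table, 13 in mitochondrial DNA and 79 in the nucleus. Of the mitochondrial genes, 7 belong to complex I, 1 to complex III, 3 to complex IV and 2 to complex V. Of the nuclear genes, 32 carry complex I names, 4 complex II, 9 complex III, 17 complex IV and 15 complex V. The other two, Atp5s and Atp5sl, carry ATP synthase names but are not subunits of it. The rule used symbols and chromosomes, and no measured value.

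RNA was sequenced from the distal colon of mice, with 1 library per animal. The C57BL/6 group held 8 wild-type control mice aged 14 weeks, 4 male and 4 female. The Winnie group held 7 mice of the same age, 3 male and 4 female, from a line on the C57BL/6 background that carries a missense mutation in the mucin gene Muc2 and develops colitis without any added agent. The Winnie-Prolapse group held 7 mice of that line with prolapse, aged 18 weeks, 4 male and 3 female. Age therefore went with prolapse, and their contributions cannot be told apart. No group received a treatment, the labels name no batch, and p-values below measure the spread between these mice.

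The respiratory chain passes electrons from NADH and succinate to oxygen and pumps protons across the inner mitochondrial membrane, and ATP synthase, complex V, uses that gradient to make ATP. Complexes I, III, IV and V are each assembled from subunits of both genomes, whereas complex II, succinate dehydrogenase, is encoded entirely in the nucleus. Mitochondrial messenger RNAs are cut from long transcripts of the circular genome, so their levels are set by other machinery than that of nuclear genes. Colonocytes, the absorptive cells of the colon lining, are known for a high oxidative metabolism that burns butyrate from gut bacteria.

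Library totals ran from 25429915 to 31505256 counts in C57BL/6, from 25935298 to 36344372 in Winnie and from 24817527 to 33793979 in Winnie-Prolapse. Colonocyte markers, 14 genes with none at 0, summed to 13956 to 27375 CPM (counts scaled to a common library total) in C57BL/6, 11388 to 21550 in Winnie and 8357 to 17227 in Winnie-Prolapse. Striated muscle markers, 8 genes of which Myh4 was at 0 in C57BL/6, summed to 17.1 to 51.1 CPM in C57BL/6 but reached 2934 CPM in Winnie-Prolapse replicate 2, and Winnie replicate 3 held 142 CPM. Milk protein genes took 179624 CPM in Winnie-Prolapse replicate 6. Winnie replicate 3 and Winnie-Prolapse replicates 2, 4, 5 and 6, the libraries with striated muscle or milk protein RNA, are called the set-aside libraries, and results are given with and without them. Leaving them out did not remove squamous epithelium, whose 11 markers (Ivl at 0 in C57BL/6) summed to 4.13 to 47.5 CPM in C57BL/6, 6.43 to 119 CPM in Winnie and 107 to 3565 CPM in Winnie-Prolapse. Winnie-Prolapse replicate 7, which is not among the set-aside libraries, held the most, and replicates 1 and 3 held 107 and 115 CPM. Fits that also leave out replicate 7 keep only Winnie-Prolapse replicates 1 and 3, both male, against groups of both sexes. Sex is therefore not balanced in them. In bulk tissue, fewer cells of a type and less RNA per cell cannot be told apart.

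Several mitochondrial genes have near-identical copies in nuclear DNA. The sequences below are shown because a read from an identical stretch cannot be placed by its letters alone. Coordinates are of GRCm38, with M for the mitochondrial genome. The start of mt-Nd3, a complex I subunit, lies at chrM:9459-9491 on the plus strand, and its pseudogene Gm28438 lies at chr1:24613087-24613119 on the minus strand. They differ at 1 base in 345 aligned bases, T3C, counted from 1 at the gene's first base, with the mt-Nd3 base given first and that position in capitals.
mt-Nd3: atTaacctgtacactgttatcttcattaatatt
Gm28438: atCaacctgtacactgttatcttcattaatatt
For mt-Co2, the complex IV subunit that receives electrons from cytochrome c, 100 bases at chrM:7313-7412 on the plus strand are shared letter for letter with the pseudogene Gm28661 at chr1:24615166-24615265 on the minus strand.
mt-Co2: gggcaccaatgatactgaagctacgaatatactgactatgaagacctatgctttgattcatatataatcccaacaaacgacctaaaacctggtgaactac
Of the 100-base windows of mt-Co2, mt-Atp6, mt-Co3, mt-Nd3 and mt-Nd4l, 97.6% to 99.9% occur again in annotated nuclear copies. The pair mt-Co2 and Gm28661 received a mean of 121 and 119 counts per library, and the pair mt-Co3 and Gm28437 received 80.7 and 78.9. Other pairs were less even, with 283 counts for mt-Nd3 against 11.2 for Gm28438 and 9.36 for mt-Nd4l against 4.50 for Gm10222. The deposited levels of these 5 genes and of their copies are therefore uncertain. A sixth gene, mt-Atp8, was also low and shares no window with an annotated copy. Only annotated transcripts were searched, however. This gene starts between mt-Co2 and mt-Atp6, whose copies Gm28661 and Gm10925 lie at chr1:24614885-24615565 and chr1:24613974-24614651. The unannotated stretch between these copies was not searched, so the level of mt-Atp8 is uncertain as well. The cause of the low counts was not tested. The other 7 mitochondrial genes had a mean of at least 1000 counts, and of these mt-Nd4 shared 60.8% and mt-Co1 30.8% of windows with a copy, while mt-Nd1, mt-Nd5, mt-Nd6 and mt-Cytb shared none.

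Mitochondrial genes led the chain in level. As CPM per kilobase of exon (RPKM), the means over all 22 libraries were 15400 for mt-Co1, the catalytic subunit of cytochrome c oxidase, 9625 for mt-Cytb, the cytochrome b of complex III, and 8313 for mt-Nd1 of complex I. The highest nuclear members per length, Cox8a, Cox6a1 and Cox6b1, all small subunits of complex IV, reached 910, 760 and 730 RPKM. Only mt-Nd6 among the 7 well-counted mitochondrial genes lay below them, at 349 RPKM and in place 14 among the members. It is also the only one of the 13 encoded on the other strand of mitochondrial DNA. The libraries were made from polyadenylated RNA, so the mt-Nd6 level also depends on what that selection kept.

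In C57BL/6, mt-Co1 held 24269 CPM in the lowest library, a median of 26782 and 31941 in the highest. The Winnie libraries spread over a wider range, from 18526 through a median of 23275 to 35787 CPM. Winnie-Prolapse libraries lay from 13029 through 18498 to 24491 CPM. Only the top of the Winnie-Prolapse range reached into that of C57BL/6, and the Winnie range enclosed that of C57BL/6 only through Winnie replicate 5, since the other 6 Winnie libraries lay between 18526 and 24865 CPM.

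**Figure D1:**
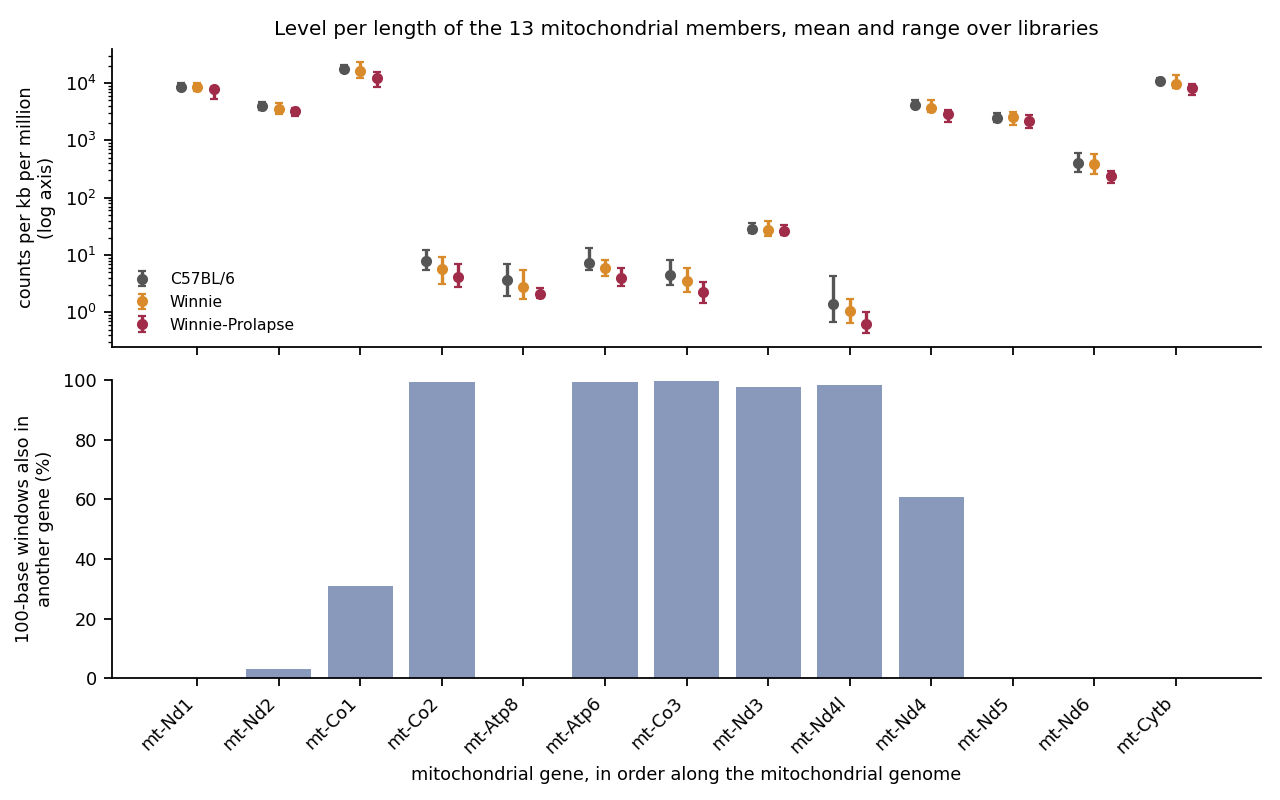
The upper panel gives the level of the 13 mitochondrial genes in RPKM on a log axis, with the group mean as a point and the range over libraries as a bar, and the lower panel the percentage of 100-base windows found in another gene. The genes at the lowest levels, apart from mt-Atp8, are those with 97.6% or more of windows shared with other annotated genes. Sequence outside annotated genes was not searched.

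Counts from the 13 mitochondrial genes made up 6.27% ± 0.51 of a library in C57BL/6 (SD, n = 8), 5.75% ± 1.01 in Winnie (n = 7) and 4.69% ± 0.76 in Winnie-Prolapse (n = 7). The C57BL/6 libraries ran from 5.71% to 7.05% and the Winnie-Prolapse libraries from 3.40% to 5.57%, so those groups did not overlap. Winnie, from 4.86% to 7.87%, overlapped both. The 79 nuclear members made up 1.46% ± 0.08, 1.40% ± 0.14 and 1.29% ± 0.25 in the same order, and these groups overlapped. For the ratio of mitochondrial to nuclear counts, C57BL/6 gave 4.29 ± 0.35, Winnie 4.13 ± 0.87 and Winnie-Prolapse 3.69 ± 0.64, with overlap between all groups. The mean Winnie-Prolapse share of mitochondrial counts was 4.80% with the milk protein genes left out of the total and 5.32% without the set-aside libraries. Without them the nuclear share was 1.49% and the ratio 3.62. The mitochondrial sums rest almost wholly on the 7 well-counted genes. Mean counts were 121 for mt-Co2, 117 for mt-Atp6 and 80.7 for mt-Co3, against 707948 for mt-Co1. How reads from windows shared with nuclear copies were counted is not known, also for mt-Co1 and mt-Nd4. The share and the ratio therefore describe the deposited counts, not the full output of the mitochondrial genome.

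**Figure D2:**
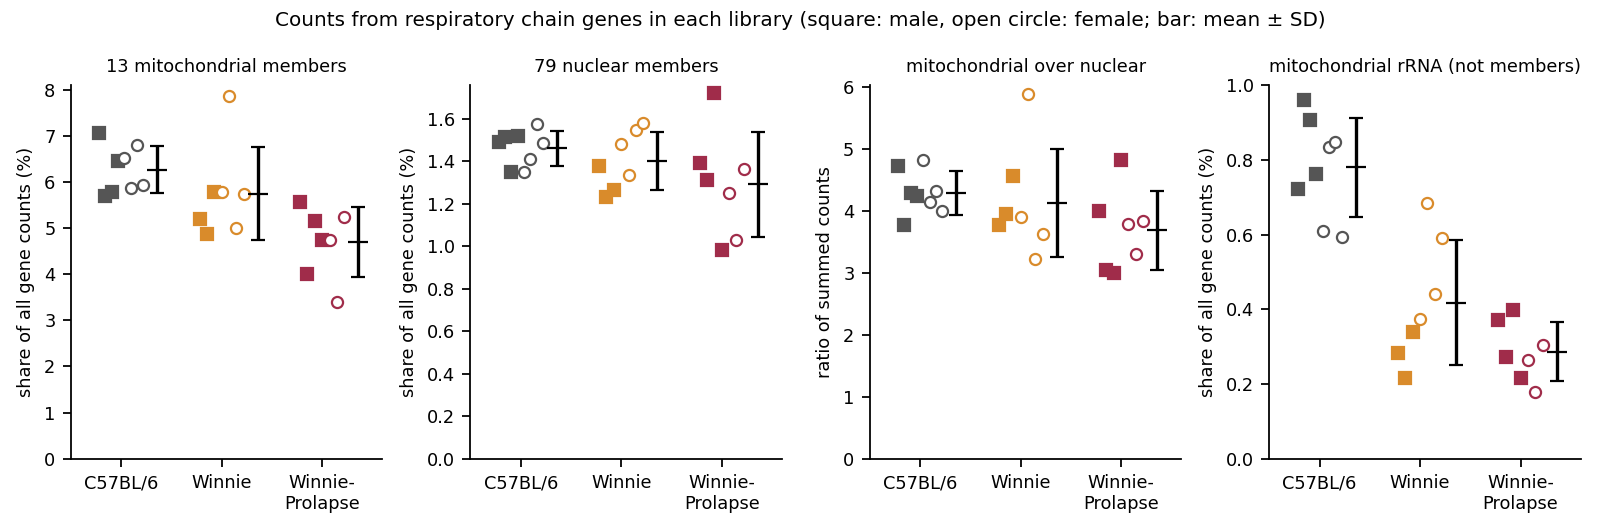
Share of each library's counts from the mitochondrial genes, the nuclear members and the mitochondrial ribosomal RNAs, in percent, and the ratio of the first pair, with squares for males, open circles for females and bars for the mean ± SD. The mitochondrial share of Winnie-Prolapse, at most 5.57%, lies below that of C57BL/6, at least 5.71%, and the nuclear shares overlap. The mitochondrial share is one of deposited counts and rests almost wholly on the 7 well-counted genes.

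The mitochondrial ribosomal RNAs are not members, because they encode no protein. They are transcribed from the same genome, and the library protocol selected polyadenylated RNA, so their level also depends on what that selection kept. Their summed share ran from 0.595% to 0.961% in C57BL/6, from 0.215% to 0.684% in Winnie and from 0.180% to 0.399% in Winnie-Prolapse. Relative to C57BL/6, mt-Rnr1 fell by 0.90 on the log2 scale in Winnie (adjusted p = 0.0124) and by 1.33 in Winnie-Prolapse (adjusted p = 3.35e-05), by edgeR's quasi-likelihood test with Benjamini-Hochberg adjustment over all genes tested. For mt-Rnr2 the falls were 0.77 (adjusted p = 0.0219) and 1.37 (adjusted p = 4.49e-05) by that edgeR test. Between Winnie-Prolapse and Winnie neither passed, at -0.43 for mt-Rnr1 (edgeR adjusted p = 0.282) and -0.59 for mt-Rnr2 (0.183). Without the set-aside libraries they fell by 0.99 (adjusted p = 0.00504) and 0.94 (adjusted p = 0.00187) in Winnie-Prolapse by edgeR, and with replicate 7 also left out by 0.85 (adjusted p = 0.0361) and 0.84 (adjusted p = 0.0163).

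Winnie against C57BL/6 asks how the chain differs in colitis at one age. In this comparison few members moved: 2 nuclear genes rose, 2 fell, and none of the 13 mitochondrial genes passed the test. Ndufs8, an iron-sulfur subunit of complex I, and Ndufa10, an accessory subunit of its membrane arm, were higher, whereas Cox8b, a muscle-type subunit of complex IV, and Atp5sl, also named Dmac2 and linked to complex I assembly, were lower. A gene counted as higher or lower at an adjusted p under 0.05 by edgeR's quasi-likelihood test. By that rule 13.8% of all genes tested were higher and 11.9% lower, against 2 and 2 of the 89 members tested.

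Ndufs8 measured 46.1, 55.7 and 67.3 CPM in the lowest, median and highest C57BL/6 library and 56.8, 65.2 and 74.4 CPM in Winnie. The groups overlapped, and the log2 fold change was 0.29 ± 0.10 (SE, edgeR adjusted p = 0.0424). For Ndufa10 the values were 128, 142 and 159 CPM against 139, 162 and 175 CPM, with a log2 fold change of 0.24 ± 0.08 (edgeR adjusted p = 0.0430). Atp5sl lay at 37.6, 63.2 and 75.8 CPM in C57BL/6 and at 32.3, 39.0 and 62.2 CPM in Winnie, and fell by 0.42 ± 0.15 (edgeR adjusted p = 0.050). These 3 calls were slight: each kept its side of the threshold in 4 of the 15 fits that left out a library. Without Winnie replicate 5, nuclear members gave 5 higher and 4 lower calls, where 18.4% of all genes were higher and 17.0% lower, and other single libraries brought the higher calls to 0.

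Cox8b kept its call in all 15 such fits. It ran from 0.944 through 1.60 to 1.97 CPM in C57BL/6 and from 0.0961 through 0.301 to 1.12 CPM in Winnie, a fall of 1.80 ± 0.38 on the log2 scale (edgeR adjusted p = 0.00565). All but 1 of the Winnie libraries lay below the lowest C57BL/6 library. The call was lost with all 3 groups in one fit (edgeR adjusted p = 0.106). Striated muscle markers had medians of 28.3 CPM in C57BL/6 and 11.5 CPM in Winnie. The medians were 9991 and 4268 CPM for smooth muscle markers and 119 and 60.0 CPM for 9 fat markers. The part of these tissues in the Cox8b result was not tested. Ndufb5, an accessory subunit of the membrane arm of complex I, was the only member whose groups did not overlap, at 104, 114 and 131 CPM in C57BL/6 against 73.4, 96.0 and 104 CPM in Winnie, but it missed the threshold (log2 fold change -0.24, edgeR adjusted p = 0.0873). Over all genes, 1.64% did not overlap between these groups.

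The well-counted mitochondrial genes had log2 fold changes from -0.09 for mt-Nd4 to 0.14 for mt-Nd5. Their median was -0.05, that of the nuclear members -0.02 and that of all genes tested -0.01. The precision bounded most members closely: in 73 of 89 (82.0%) the 95% confidence interval of the fold change lay within 1.5-fold either way, against 48.5% of all genes. No member passed the stricter rule of the study, an adjusted p under 0.001 with at least a 1.5-fold change, which 0.0925% of all genes did. At an unadjusted p under 0.05 there were 12 of 89 members by edgeR, against 39.9% of all genes, and DESeq2 called 1 member by the stricter rule, against 4.11% of all genes.

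Winnie against C57BL/6 was also fitted within each sex. Among males alone (4 C57BL/6, 3 Winnie) 22 of 77 nuclear members and 1 mitochondrial gene fell and none rose, where 13.9% of all genes fell and 16.2% rose, and the nuclear median was -0.24. Among females alone no member passed the edgeR test, 1 of 17260 genes did, and the nuclear median was 0.13. The difference was tested as an interaction of sex and group. For 36 of the 90 members tested it had an unadjusted p under 0.05, all with the lower change in males, where 8.84% of all genes had such a p in that direction. After Benjamini-Hochberg adjustment 1 member passed, Ndufa1, and 0.247% of all genes did. The 36 members rest on the same 3 male Winnie libraries and are not independent of each other. Colonocyte markers summed to 11388 to 15163 CPM in those libraries and to 16343 to 21550 CPM in the 4 female Winnie libraries, while the C57BL/6 sexes overlapped, and the part of colonocyte content in the difference was not tested. One of the male libraries, Winnie replicate 3, is set aside for striated muscle RNA. Without it, 12 nuclear members fell in males and 1 rose, where 14.6% of all genes fell and 17.4% rose, no mitochondrial gene passed, and the nuclear median was -0.20.

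Ndufa1, an X-linked accessory subunit of complex I, averaged 106 ± 14.2 CPM in C57BL/6 males (SD, n = 4) and 87.9 ± 11.7 CPM in C57BL/6 females (n = 4). In Winnie it averaged 46.6 ± 7.78 CPM in males (n = 3) and 79.3 ± 2.46 CPM in females (n = 4). The male range in Winnie, 37.9 to 52.9 CPM, lay below the female range, 75.8 to 81.5 CPM. The male log2 fold change lay 1.13 ± 0.19 (SE) below the female one, with an adjusted p of 0.0369 by edgeR, and it missed the threshold without the filter on low counts (adjusted p = 0.0542). In the other comparisons the interaction test passed 0.0% of all genes by edgeR, members included. At an unadjusted p under 0.05 there were 823 of 18722 genes and 0 members with Winnie-Prolapse against C57BL/6, and 2334 of 18400 genes and 7 members with Winnie-Prolapse against Winnie.

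Winnie-Prolapse against C57BL/6 asks how the chain differs in the mice with prolapse. Here 6 of the 12 mitochondrial genes tested were lower, and nuclear members gave 10 lower and 2 higher of 77. The mitochondrial genes that fell encode subunits of complex I (mt-Nd4, mt-Nd6), complex IV (mt-Co2, mt-Co3) and complex V (mt-Atp6, mt-Atp8), and those of the nucleus included Ndufa1, Ndufb5 and Ndufa6 of complex I, Uqcrh of complex III, Cox4i1 of complex IV and Atp5e of complex V. The higher pair, Cox6a2 and Ndufa4l2, stood high in a few libraries. Cox6a2 was tested here only through the Winnie-Prolapse group, since it was too low to be tested in Winnie against C57BL/6. Over all genes 26.5% were higher and 26.0% lower. The nuclear lower calls were thus fewer than in the table as a whole and the mitochondrial lower calls more. Of those 6 mitochondrial calls, 4 were in genes under 1000 counts, 3 of them with an annotated nuclear copy. The median log2 fold change was -0.35 over the 7 well-counted mitochondrial genes, -0.12 over the nuclear members and -0.01 over all genes. Immune cell markers, 15 genes with none at 0, summed to 150 to 733 CPM in C57BL/6 and to 1660 to 2955 CPM in Winnie-Prolapse, without overlap. The sums of 9 goblet cell markers, none at 0, were 10942 to 16400 CPM and 4300 to 13670 CPM. Singly, markers did not all move alike. Immune cell markers gave 11 higher and 0 lower of 14 tested, goblet cell markers 2 and 3 of 9, and colonocyte markers 3 and 8 of 13. The part of these cell types in the counts of members was not tested.

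These counts depended on the set-aside libraries. Without Winnie-Prolapse replicates 2, 4, 5 and 6, nuclear members gave 10 higher and 2 lower calls and mitochondrial genes none by edgeR, where 17.5% of all genes were higher and 14.2% lower. The medians then were 0.17 for nuclear members, -0.11 for the mitochondrial genes and -0.02 for all genes. The 4 libraries left out held colonocyte marker sums of 9009, 9786, 10851 and 8357 CPM and the 3 kept held 14039, 17227 and 12444 CPM, and the part of cell makeup in the result was not tested. With replicate 7 also left out, nuclear members gave 9 higher and 1 lower call, mitochondrial genes none, and the nuclear median was 0.26, where 11.9% of all genes were higher and 7.16% lower. The higher calls, 9 of 77 nuclear members tested, came near the share of all genes. They were Uqcrq, Atp5g1, Ndufs8, Ndufa11, Ndufb8, Cox6a1, Ndufa10, Atp5d and Atp5a1, and the lower one was Cox8b. Log2 fold changes of the higher calls ran from 0.40 for Atp5a1 to 0.75 for Uqcrq. Leaving out Winnie-Prolapse replicate 3 alone gave 28 lower nuclear calls of 77 and 8 lower mitochondrial calls of 12, where 28.9% of all genes were higher and 26.8% lower. There were 6 higher nuclear calls without replicate 4 (25.7% of all genes), 5 without C57BL/6 replicate 7 (28.1%) and 1 without C57BL/6 replicate 2 (23.3%) or 6 (25.5%).

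**Figure D3:**
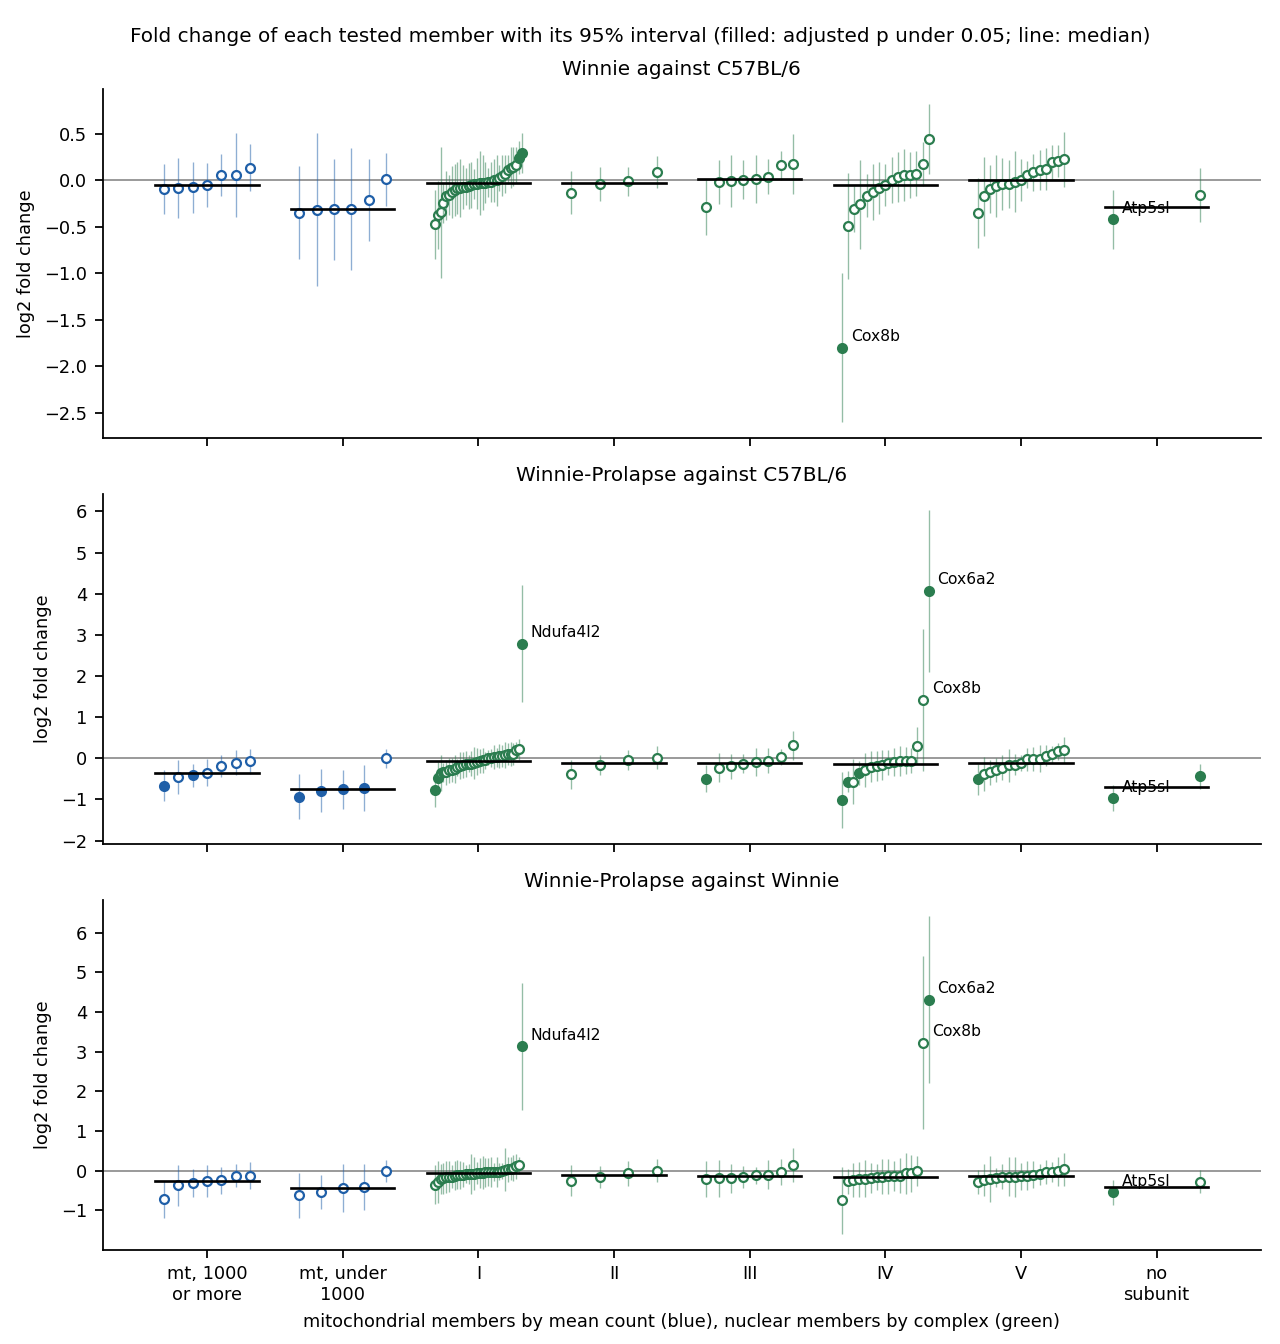
Log2 fold changes of the members tested, mitochondrial genes in blue and nuclear members by complex in green, with 95% intervals, filled points for an adjusted p under 0.05 and lines at the medians. Where Winnie-Prolapse is set against C57BL/6, the mitochondrial genes sit near or below 0, while most nuclear members lie close to 0 and Cox6a2 and Ndufa4l2 far above it.

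Among the mitochondrial genes, mt-Nd4, a proton-pumping subunit of complex I, ran from 5107 through 5461 to 6989 CPM in C57BL/6 and from 2858 through 4228 to 4747 CPM in Winnie-Prolapse. The groups did not overlap, and it fell by 0.42 ± 0.13 on the log2 scale (edgeR adjusted p = 0.0165). For mt-Nd6, another membrane subunit of complex I, the values were 147, 210 and 308 CPM against 95.4, 133 and 150 CPM. The ranges touched only at their ends, and it fell by 0.67 ± 0.18 (edgeR adjusted p = 0.00581). Whether the selection of polyadenylated RNA kept mt-Nd6 alike in both groups was not tested. For mt-Cytb the libraries also separated, at 11325, 12499 and 13822 CPM against 7186, 9354 and 10824 CPM, yet the fall of 0.35 ± 0.15 missed the threshold (edgeR adjusted p = 0.0619).

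The mt-Co1 difference, -0.46 ± 0.20, had the same adjusted p of 0.0619 by edgeR and passed with DESeq2 (adjusted p = 0.00688) and limma-voom (adjusted p = 0.00976), as did mt-Cytb (0.00484 and 0.0106). With the set-aside libraries and Winnie-Prolapse replicate 7 left out, none of these genes passed the edgeR test, with log2 fold changes of -0.055 for mt-Co1 (adjusted p = 0.859), -0.14 for mt-Cytb (adjusted p = 0.565), -0.14 for mt-Nd4 (adjusted p = 0.549) and -0.47 for mt-Nd6 (adjusted p = 0.228). The low-count genes showed the largest falls, 0.93 ± 0.26 for mt-Co3 (edgeR adjusted p = 0.00653), 0.79 for mt-Co2 (0.0139), 0.76 for mt-Atp6 (0.0105) and 0.72 for mt-Atp8 (0.0290). Their levels were a few CPM, and mt-Co3 ran from 2.35 to 6.56 CPM in C57BL/6 and from 1.12 to 2.63 CPM in Winnie-Prolapse. At the other end, mt-Nd3 had a log2 fold change of 0.00 ± 0.11 and mt-Nd1 one of -0.08 ± 0.14, and differences between the genes were not tested. Only mt-Nd4 and mt-Cytb among the members separated the groups, as 16.0% of all genes did.

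Of the nuclear genes, Atp5sl had the smallest adjusted p, at 37.6, 63.2 and 75.8 CPM in C57BL/6 against 20.9, 27.7 and 38.7 CPM in Winnie-Prolapse. The ranges overlapped only at their ends, and it fell by 0.97 ± 0.15 (edgeR adjusted p = 8.83e-05). It was the only member past the study's stricter rule, which 18.3% of all genes passed. By that rule the members gave 5 calls without Winnie-Prolapse replicate 3 (20.8% of all genes), 2 without C57BL/6 replicate 7 (20.1%) and 0 without the set-aside libraries (6.23%). In that last fit Atp5sl had an adjusted p of 0.0159 by edgeR, and with Winnie-Prolapse replicate 7 also left out it missed the threshold (log2 fold change -0.63, adjusted p = 0.0741).

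Cox7a2l, linked to the joining of complexes III and IV into supercomplexes, held 128, 178 and 211 CPM in C57BL/6 and 72.4, 109 and 141 CPM in Winnie-Prolapse. The groups overlapped slightly, and Cox7a2l fell by 0.57 ± 0.12 (edgeR adjusted p = 0.00104). Supercomplexes were not measured. Ndufa1 held 78.96, 95.5 and 118 CPM against 30.9, 57.2 and 84.1 CPM and fell by 0.76 ± 0.19 (edgeR adjusted p = 0.00376). Ndufb5 fell by 0.35 ± 0.11 (edgeR adjusted p = 0.0153), from 115 ± 9.88 CPM (SD, n = 8) to 85.0 ± 13.5 CPM (n = 7). Without the set-aside libraries the adjusted p was 0.0914 for Cox7a2l, 0.129 for Ndufa1 and 0.396 for Ndufb5. With Winnie-Prolapse replicate 7 also left out, their log2 fold changes were -0.32, -0.25 and -0.061.

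Apart from Cox4i1 and Cox7a1, the other nuclear members that fell were Uqcrh, Atp5e, Ndufa6 and Atp5s. Uqcrh, the hinge protein of complex III, went from 283 ± 20.3 to 188 ± 51.3 CPM and fell by 0.49 ± 0.16 (edgeR adjusted p = 0.0161). Atp5e, the epsilon subunit in the central stalk of ATP synthase, went from 80.6 ± 14.4 to 52.8 ± 15.7 CPM and fell by 0.51 ± 0.18 (edgeR adjusted p = 0.0265). Ndufa6, an accessory subunit of complex I, went from 205 ± 20.7 to 137 ± 48.1 CPM (edgeR adjusted p = 0.0379). Atp5s went from 10.4 ± 2.23 to 7.24 ± 1.47 CPM (edgeR adjusted p = 0.0178). For Uqcrh, Atp5e and Ndufa6, Winnie-Prolapse replicate 3 reached into the C57BL/6 range while replicate 4 was far below it. None of these 4 genes passed without the set-aside libraries, with adjusted p from 0.280 for Atp5s to 0.963 for Ndufa6. With Winnie-Prolapse replicate 7 also left out, log2 fold changes were -0.068 for Uqcrh, -0.092 for Atp5e, 0.088 for Ndufa6 and -0.22 for Atp5s.

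Atp5b, Uqcrc2 and Ndufv2, the most abundant nuclear members of complexes V, III and I, did not pass the test, and nor did any gene of complex II. Atp5b, the catalytic beta subunit of ATP synthase and the nuclear member with the most counts, held 1452 ± 56.6 CPM in C57BL/6, 1568 ± 132 CPM in Winnie and 1462 ± 141 CPM in Winnie-Prolapse. Uqcrc2, a core protein of complex III, held 294 ± 16.6, 284 ± 25.3 and 252 ± 39.0 CPM, and Ndufv2, an iron-sulfur subunit of complex I, 215 ± 12.1, 221 ± 32.1 and 205 ± 47.7 CPM. Among the 4 genes of complex II, Sdhb, its iron-sulfur subunit, came closest, with 124 ± 14.7 CPM in C57BL/6 and 88.2 ± 24.1 CPM in Winnie-Prolapse (log2 fold change -0.39 ± 0.16, edgeR adjusted p = 0.0519). The flavoprotein Sdha and the membrane anchors Sdhc and Sdhd had log2 fold changes of -0.17, 0.01 and -0.04. With the set-aside libraries and Winnie-Prolapse replicate 7 left out, directions turned for Sdha (0.17), Sdhb (0.083) and Sdhd (0.26). Sdhc, at 0.41, then came closest to the threshold (edgeR adjusted p = 0.0553). With all libraries, the 95% interval of the fold change lay within 1.5-fold either way in 58 of 89 members (65.2%), against 35.4% of all genes.

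Several complex IV subunits exist as isoforms for different tissues, and the values of the muscle-type forms are given beside those of the common ones. Cox6a2, the heart and skeletal muscle partner of Cox6a1, measured 18.4 CPM in Winnie-Prolapse replicate 2, 5.49 in replicate 4 and 5.85 in replicate 5, and at most 0.651 CPM in every other library. The same replicates led for Cox8b, the muscle partner of Cox8a, at 20.8, 3.60 and 4.67 CPM, where the other 4 Winnie-Prolapse libraries held 0.0592 to 0.393 CPM. Striated muscle markers summed to 2934, 1019 and 345 CPM in those 3 libraries and to 4.91 to 10.7 CPM in the other Winnie-Prolapse libraries. Ndufa4l2, a low-oxygen-induced relative of Ndufa4, measured 17.8 CPM in replicate 2 and 29.1 in replicate 4, and 0.829 to 2.62 CPM in the other 5.

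Relative to C57BL/6, Cox6a2 rose by 4.07 ± 0.92 on the log2 scale (edgeR adjusted p = 0.00183) and Ndufa4l2 by 2.79 ± 0.67 (edgeR adjusted p = 0.00263). Without the set-aside libraries neither passed, at 0.72 (adjusted p = 0.398) and 0.63 (adjusted p = 0.241). Cox6a2 was too low to be tested in Winnie against C57BL/6 and entered this fit through the group where it was high. Its p is therefore given as a description only. For Cox8b the direction turned, from 1.42 (adjusted p = 0.152) to -2.38 (adjusted p = 0.00201) without them, and the common form Cox6a1 went from -0.06 (adjusted p = 0.768) to 0.37 (adjusted p = 0.0390). Cox6a2 had no count in 1 C57BL/6 library, and a count of 0 allows up to 0.0825 to 0.121 CPM at these depths, counting error only. Cox8c, a testis form, had no count in any library.

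The common forms varied less. Cox8a held 607 ± 48.3, 569 ± 91.7 and 507 ± 155 CPM in C57BL/6, Winnie and Winnie-Prolapse, and Cox6b1 held 543 ± 40.2, 528 ± 106 and 475 ± 126 CPM, with neither past the test. Cox4i1, the largest nuclear subunit of complex IV, fell from 678 ± 44.8 to 495 ± 125 CPM in Winnie-Prolapse (log2 fold change -0.36 ± 0.14, edgeR adjusted p = 0.0449). It kept this call in 2 of the 15 fits that left out a library, and without the set-aside libraries its log2 fold change was -0.03 (edgeR adjusted p = 0.891). Its lung-type partner Cox4i2 stayed near 1 CPM in all groups, and Cox6b2, the testis form of Cox6b1, had means of 2.66 to 4.10 CPM.

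Cox7a1, the muscle form of the Cox7a subunit, went the other way from Cox6a2. It held 29.2, 39.4 and 47.8 CPM in C57BL/6 and 6.05, 16.3 and 34.1 CPM in Winnie-Prolapse, a fall of 1.01 ± 0.32 (edgeR adjusted p = 0.0152), and was -0.30 (adjusted p = 0.255) without the set-aside libraries. Its common partner Cox7a2 had a log2 fold change of -0.20 ± 0.18. With the set-aside libraries and Winnie-Prolapse replicate 7 left out, that of Cox7a2 was 0.27 (edgeR adjusted p = 0.322). Smooth muscle markers, 11 genes with none at 0, summed to 7912 to 15052 CPM in C57BL/6, 2376 to 9009 in Winnie and 1659 to 3859 in Winnie-Prolapse, and all 11 fell in Winnie-Prolapse. The part of smooth muscle content in the Cox7a1 result was not tested.

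**Figure D4:**
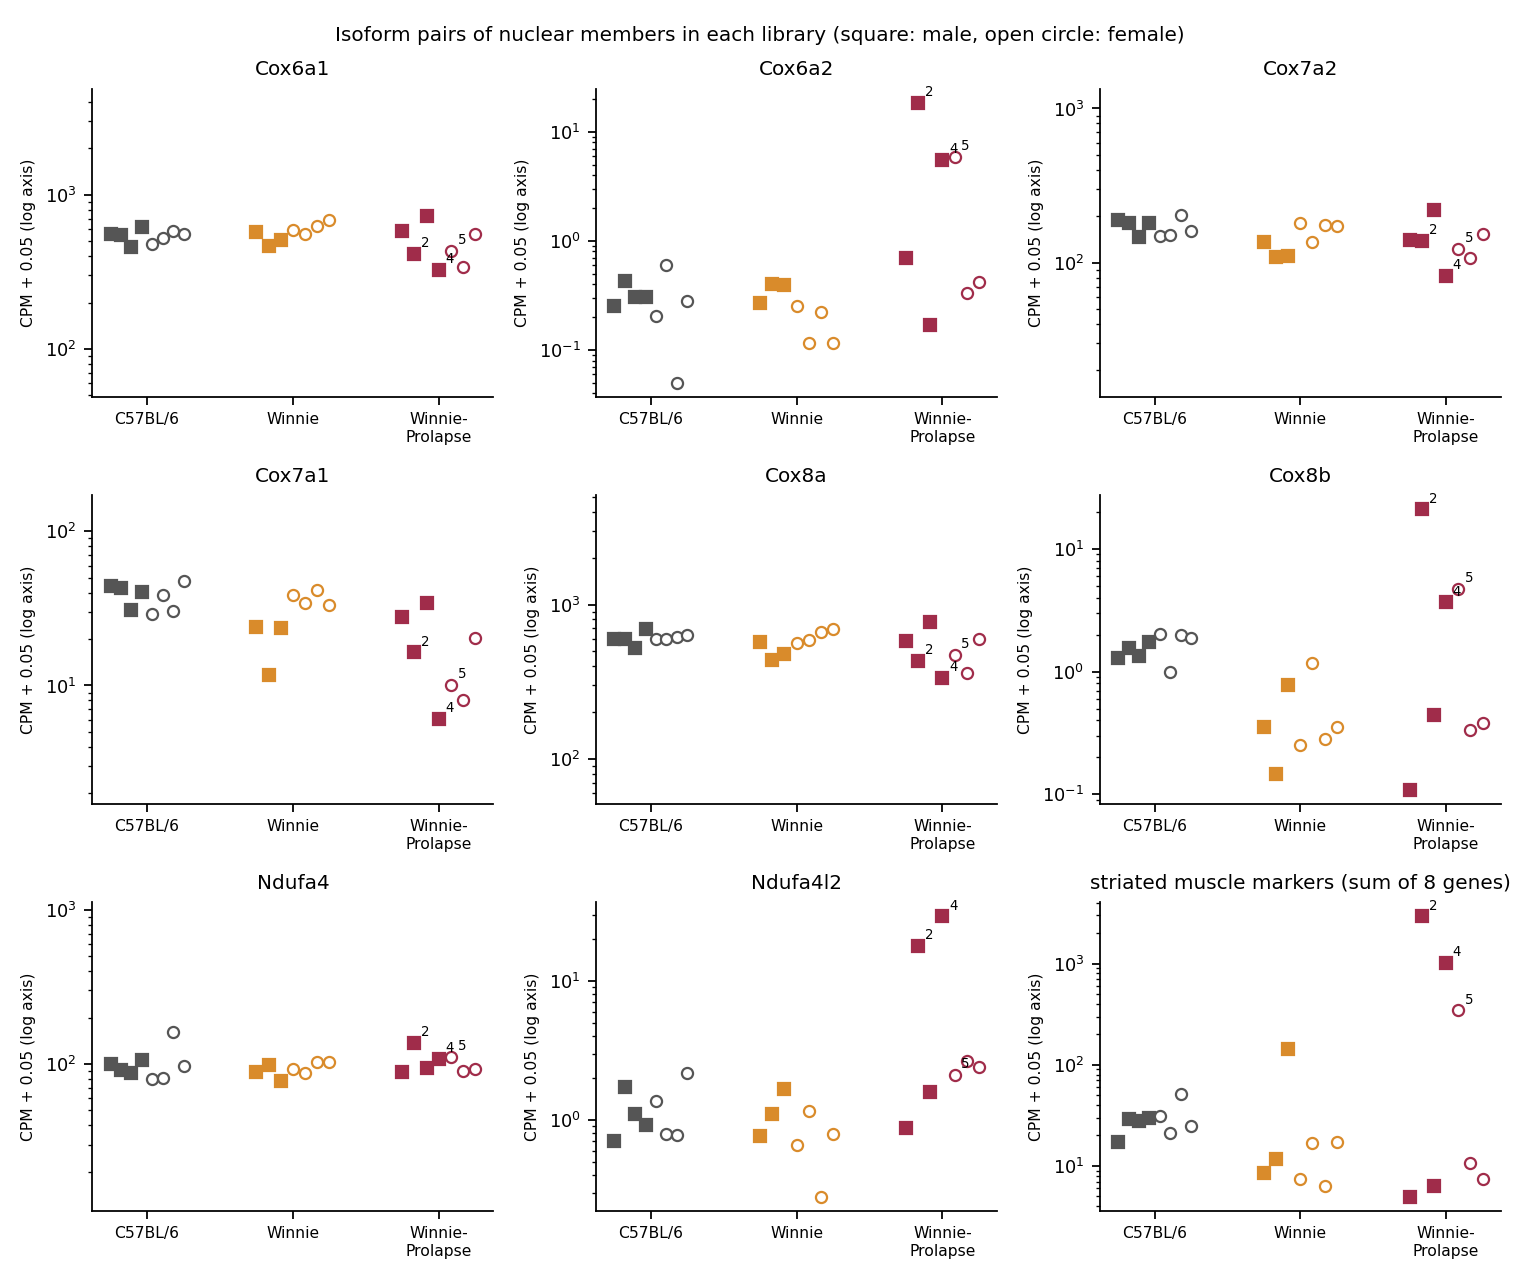
CPM of isoforms and of the striated muscle marker sum in each library, with a small constant added, on log axes, with squares for males and open circles for females. Numbers mark Winnie-Prolapse replicates 2, 4 and 5, which stand above all other libraries for Cox6a2 and Cox8b, while Cox6a1 and Cox8a stay within a narrow band.

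Promoters of a few members described above are shown because the common and tissue forms of a complex IV subunit have separate genes, each with its own promoter. RefSeq sequence of GRCm38.p6, 300 bases around each transcription start, was available for 60 members, Cox6a2 not among them, and was searched on both strands for GCGC followed by any base and TGCGC (NRF1), CCGGAAG (GABP and other ETS factors) and AAGATGGCG (YY1), with matches in capitals. NRF1 and GABP are known activators of nuclear respiratory chain genes. Cox6a1 (chr5:115348909-115349208) and Cox8a (chr19:7217567-7217866) are the common forms, Cox8b (chr7:140900397-140900696) a muscle form, and Uqcrh (chr4:116075021-116075320) a member that fell in Winnie-Prolapse, all on the minus strand.
Cox6a1: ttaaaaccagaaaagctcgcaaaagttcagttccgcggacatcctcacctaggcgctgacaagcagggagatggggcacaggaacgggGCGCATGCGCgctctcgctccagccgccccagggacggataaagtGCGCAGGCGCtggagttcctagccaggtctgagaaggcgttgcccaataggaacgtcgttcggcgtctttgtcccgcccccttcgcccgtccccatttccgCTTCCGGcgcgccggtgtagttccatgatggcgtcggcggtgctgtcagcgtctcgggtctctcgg
Cox8a: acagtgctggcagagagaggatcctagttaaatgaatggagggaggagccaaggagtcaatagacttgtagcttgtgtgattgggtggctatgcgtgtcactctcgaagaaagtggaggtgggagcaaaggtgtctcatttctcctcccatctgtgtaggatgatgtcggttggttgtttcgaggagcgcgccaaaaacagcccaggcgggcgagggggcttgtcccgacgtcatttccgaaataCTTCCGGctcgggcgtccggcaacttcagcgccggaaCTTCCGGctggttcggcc
Cox8b: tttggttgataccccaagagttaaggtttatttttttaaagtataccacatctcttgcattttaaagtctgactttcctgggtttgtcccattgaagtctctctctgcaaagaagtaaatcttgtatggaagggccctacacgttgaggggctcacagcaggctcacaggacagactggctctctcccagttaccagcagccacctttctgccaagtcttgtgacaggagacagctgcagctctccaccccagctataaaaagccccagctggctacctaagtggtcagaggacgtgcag
Uqcrh: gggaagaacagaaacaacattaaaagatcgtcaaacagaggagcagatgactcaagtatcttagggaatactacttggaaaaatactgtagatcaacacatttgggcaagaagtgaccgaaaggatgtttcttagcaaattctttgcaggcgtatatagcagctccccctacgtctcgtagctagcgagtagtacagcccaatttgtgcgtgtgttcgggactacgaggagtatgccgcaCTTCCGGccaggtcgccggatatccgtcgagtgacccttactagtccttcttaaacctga
Cox6a1 held 2 NRF1 matches and 1 GABP match, Cox8a 2 GABP matches, Uqcrh 1, and the Cox8b window none of the 3 motifs. Among the members, 17 of 60 (28.3%) held the NRF1 motif, against 7.17% of all 17492 protein-coding genes with a promoter. The GABP motif was in 16 (26.7%), against 12.9%, and the YY1 motif in 5 (8.33%), against 2.14%. Of the 7 members with a promoter that fell in Winnie-Prolapse against C57BL/6, 1 held the NRF1 motif, 2 the GABP motif and none the YY1 motif. A match of letters is not a measured binding site.

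Winnie-Prolapse against Winnie asks what goes with prolapse among mice of the same line. Of the 77 nuclear members tested, Cox6a2 and Ndufa4l2 rose and Atp5sl fell, and none of the 12 mitochondrial genes passed. Over all genes 5.01% were higher and 3.73% lower by the same rule. These comparisons share libraries with the others, so their values are given side by side and not as separate evidence.

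Cox6a2 measured 0.0656, 0.203 and 0.352 CPM in the lowest, median and highest Winnie library, and rose by 4.31 ± 0.99 (edgeR adjusted p = 0.0227). This gene passed the filter on low counts through the Winnie-Prolapse group, where it was high, so its p is a description only. Ndufa4l2, at 0.230, 0.737 and 1.62 CPM in Winnie, rose by 3.14 ± 0.75 (edgeR adjusted p = 0.0249). For Cox6a2 the high libraries were Winnie-Prolapse replicates 2, 4 and 5, and for Ndufa4l2 replicates 2 and 4, while replicate 5 held 2.06 CPM of it. Endothelium and fibroblast markers summed to 2183 and 2264 CPM in replicates 2 and 4 and to 683 to 1668 CPM in the other 5, and their part in the Ndufa4l2 result was not tested. Without the set-aside libraries edgeR called almost nothing in this comparison, 0.0114% of all genes higher and 0.0% lower, and no member, with 1 member and 1533 of 17602 genes at an unadjusted p under 0.05. Atp5sl, at 32.3, 39.0 and 62.2 CPM in Winnie against 20.9, 27.7 and 38.7 CPM, fell by 0.55 ± 0.15 (edgeR adjusted p = 0.0365) and kept this call in 4 of the 14 fits that left out a library. Its order over the 3 groups was C57BL/6, Winnie and Winnie-Prolapse from high to low.

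The mitochondrial genes all had log2 fold changes below 0 here, from -0.72 for mt-Nd6 (edgeR adjusted p = 0.0543) to 0.00 for mt-Nd3. Their well-counted median was -0.27, that of the nuclear members -0.11 and that of all genes 0.01. Without the set-aside libraries the first pair became -0.08 and 0.11. No member had groups that did not overlap, as 0.962% of all genes did, and for 62 of 89 (69.7%) the 95% interval lay within 1.5-fold, against 48.4%. By the study's stricter rule edgeR called 0.0% of all genes, although 4743 had an unadjusted p under 0.05, DESeq2 called 644 and limma-voom 0. Among females alone 10 nuclear members and 1 mitochondrial gene fell and 1 nuclear member rose, where 7.43% of all genes fell and 8.91% rose, and among males alone no gene of 17560 passed the edgeR test, although 918 had an unadjusted p under 0.05.

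Respiratory chain genes are short, which matters where a comparison shifts short genes as a class. The nuclear members had a median exonic length of 1550 bases in the Winnie-Prolapse against C57BL/6 fit, where the median of all genes tested was 3880 bases. Genes of up to 1848 bases had a median log2 fold change of -0.04 there, and the longest class, of 7033 bases or more, one of -0.02. Against genes of their own length class the nuclear members lay lower by a median of 0.08 (a difference of -0.08) and the well-counted mitochondrial genes by 0.31 (a difference of -0.31). With each library's length trend taken out as an offset, the medians were -0.07 and -0.28. The median of all genes moved up as well, to 0.02 from -0.01. In that fit 5 nuclear members rose in place of 2, where 29.2% of all genes rose in place of 26.5%.

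**Figure D5:**
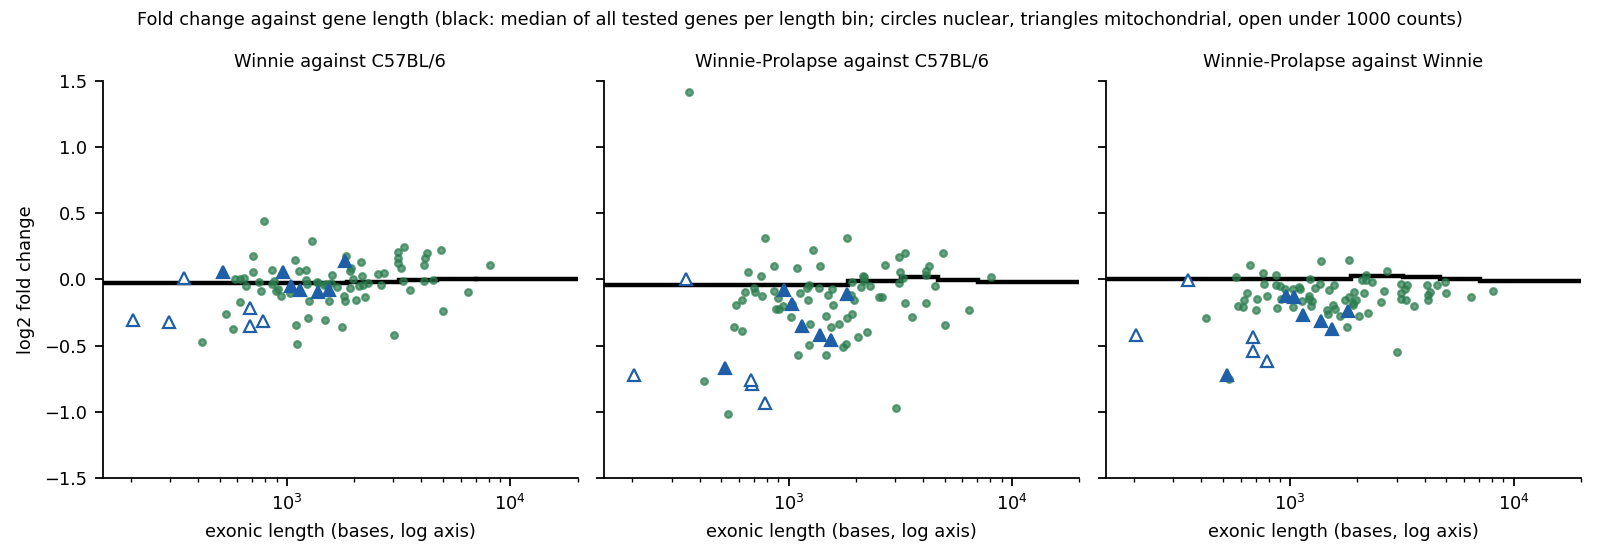
Log2 fold change against exonic length in bases on a log axis for the 3 comparisons, with circles for nuclear members, triangles for mitochondrial genes (open under 1000 counts) and black lines for the medians of all genes in 5 length classes. The black lines stay near 0, and the vertical axis ends at 1.5 either way, so Cox8b in Winnie against C57BL/6, Cox6a2 and Ndufa4l2 in the comparisons with Winnie-Prolapse, and Cox8b in Winnie-Prolapse against Winnie lie outside it.

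Genes of related pathways, in lists written with earlier results of these data known, are given for Winnie-Prolapse against C57BL/6, where 26.5% of all genes were higher and 26.0% lower. Glycolysis, which makes ATP without the chain, gave 8 higher and 1 lower of 15, among them the hexokinase Hk2 (1.39 on the log2 scale), the phosphoglycerate kinase Pgk1 (0.83) and the enolase Eno1 (0.74). Butyrate uptake and fatty acid oxidation gave 1 higher and 10 lower of 18. Its genes included the butyrate and lactate transporter Slc16a1 (-0.94), the thiolase Acaa2 (-0.97) and the long-chain dehydrogenase Acadl (0.68), which rose. The tricarboxylic acid cycle gave 1 higher and 4 lower of 13, and Idh3b, a subunit of its NAD-dependent isocitrate dehydrogenase, fell by 0.32. With the set-aside libraries left out, where 17.5% of all genes were higher and 14.2% lower, glycolysis gave 11 higher and 1 lower, butyrate and fatty acid oxidation 1 higher and 4 lower, and the tricarboxylic acid cycle 2 higher and none lower.

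Assembly factors of the complexes gave 2 higher and 13 lower of 45, among them Surf1 (-0.56) and Cox18 (0.64) for complex IV and Lyrm7 (-0.66) for complex III. Genes that copy and express mitochondrial DNA gave 3 higher and 6 lower of 29. They included Polg2 (-1.25), the accessory subunit of the mitochondrial DNA polymerase, and Peo1 (-0.58), the helicase Twinkle. Transcriptional regulators gave 2 higher and 3 lower of 11. Hif1a, the low-oxygen factor, rose by 1.28, and the coactivators Ppargc1a and Ppargc1b, which promote mitochondrial gene expression, fell by 1.48 and 0.96. Mitochondrial ribosomal proteins gave 15 higher and 4 lower of 66, import and outer membrane genes 4 and 2 of 14, and electron carriers not covered by the symbol rule 0 and 1 of 5. With those libraries left out, against the same 17.5% and 14.2%, assembly factors gave 1 higher and 3 lower, mitochondrial DNA expression none higher and 2 lower, regulators 1 and 1, mitochondrial ribosomal proteins 8 and 1, and Ppargc1a missed the threshold (adjusted p = 0.0512).

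The same lists were counted in Winnie against C57BL/6, where 13.8% of all genes were higher and 11.9% lower. Glycolysis gave 5 higher and 1 lower, butyrate and fatty acid oxidation 2 higher and none lower, assembly factors 1 higher and 4 lower, and mitochondrial DNA expression 1 and 1. In Winnie-Prolapse against Winnie, with 5.01% of all genes higher and 3.73% lower, they gave 1 and 0, 0 and 4, 0 and 1, and 0 and 2 in that order.

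Across the 22 libraries and 17768 genes, the level most like that of mt-Co1 was that of mt-Cytb (Pearson r of log2 CPM 0.95), and that of mt-Nd4 came the third (0.91). The nearest genes that are no members were Ces2c (0.91), Dhrs11 (0.90), Tmem220 (0.90), Cdhr5 (0.90) and Srr (0.90). Points of this measure share library depth and tissue makeup, and it is given as a description.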

How the data were processed

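The authors deposited whole-number read counts per gene from polyA-selected, stranded RNA-seq libraries of mouse distal colon, and the deposited counts were used unchanged. The submitters' processing notes name STAR, featureCounts and limma, without versions, and the build GRCm38. How multi-mapping reads and strand were treated is not given in the sources used here. From the counts, CPM, RPKM (exonic lengths from the GENCODE M21 annotation, 91 of 92 members matched by identifier) and shares of library totals were computed. Each comparison was fitted on all genes that passed filterByExpr, with TMM scaling and edgeR's quasi-likelihood test (R 4.3.3, edgeR 4.0.16), between the 2 groups concerned as the labels give them, which is not the set of animals the study's text describes, and without covariates, with Benjamini-Hochberg adjustment. The scripts were tested on simulated data. Not tested because of low counts were Cox8c and a patch-sequence copy of Uqcrc1, Cox6a2 in Winnie against C57BL/6, and mt-Nd4l in the comparisons with Winnie-Prolapse. Promoters came from RefSeq GRCm38.p6.

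The genes named were the mitochondrial genes, up to 5 nuclear members per direction and comparison (those past the study's rule first, then by adjusted p), isoform families, complex II, the most abundant nuclear member of each other complex, members not tested and at most 3 genes per pathway list. Uqcrh, Atp5e, Ndufa6 and Atp5s, and mt-Rnr1 and mt-Rnr2, were named after their values were seen. So were the members called higher with the set-aside libraries and Winnie-Prolapse replicate 7 left out. Members and lists were chosen with earlier results of these data known. Alternatives were DESeq2 1.42.0, limma 3.58.1 voom, other scalings and filters, sex as a covariate, each sex alone, all groups in one fit, a length offset and leaving out each library. Fits without the libraries holding striated muscle or milk protein RNA, also without the library with the most squamous RNA or in males alone, and shares without milk protein genes, were added after seeing the data. Depth was 24817527 to 36344372 counts per library.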

Additional observations from a re-analysis of the deposited data

Results flagged for a closer look

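Of 126 combinations of group and value examined, 15 held a library far from the others of its group, by Dixon's criterion at 95%, where chance gives about 1 in 20 groups. Winnie replicate 5 was the high library for the mitochondrial share of counts (7.87%), for mt-Co1 (35787 CPM), mt-Cytb (15632 CPM), mt-Nd3 (13.8 CPM) and Atp5sl (62.2 CPM). C57BL/6 replicate 1 was high for 3 low-count mitochondrial genes with nuclear copies, mt-Atp6 (9.12 CPM), mt-Co3 (6.56 CPM) and mt-Nd4l (1.26 CPM). Winnie replicate 4 was high for mt-Atp8 (1.11 CPM). Winnie-Prolapse replicate 6, the library with milk protein RNA, was low for mt-Nd1 (5113 CPM). Winnie-Prolapse replicate 2, the library with the most striated muscle RNA, was high for Cox8b (20.8 CPM), Cox6a2 (18.4 CPM) and Cox6b2 (4.69 CPM). C57BL/6 replicate 7 was high for Ndufa4 (162 CPM) and Cox6b2 (8.77 CPM).

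Ndufa1 differed between the sexes in its change from C57BL/6 to Winnie. The male log2 fold change minus the female one was -1.13 by edgeR's interaction test.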

How the results depend on the processing

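Counts of members moved with the setting, and so did the share of all genes called, given in parentheses as higher and lower. In Winnie against C57BL/6, where 2 nuclear members were higher and 2 lower, the higher and lower counts were 0 and 9 without TMM scaling (8.90% and 16.1%), 0 and 1 without a filter (7.82% and 5.80%) or with all 3 groups in one fit (13.2% and 10.8%), 0 and 4 with at least 10 counts in every library (11.2% and 13.4%), 0 and 22 in males (16.2% and 13.9%), 1 and 12 in males without Winnie replicate 3 (17.4% and 14.6%) and 0 and 0 in females (1 of 17260 genes). DESeq2 gave 4 higher (9.94%) and 1 call by the study's rule (4.11%), males gave 1 lower mitochondrial gene, and 1 lower nuclear member was left without Winnie replicate 3 (11.3%). Leaving out each library gave 0 to 5 higher (8.97% to 18.4% of all genes), 1 to 4 lower (7.01% to 17.0%) and 0 to 1 by the study's rule (0.0% to 3.89%). The interaction call was lost without a filter (0). In Winnie-Prolapse against C57BL/6, with 2 higher and 10 lower nuclear members and 6 lower mitochondrial genes, no TMM scaling gave 18 lower (28.2%), at least 10 counts 1 higher (27.1%), males 2 lower and 1 mitochondrial (of all genes 15.3% higher and 12.6% lower), females 0 higher, 6 lower and 2 mitochondrial (16.8% and 15.2%), the length offset 5 higher (29.2%), and the fit without the set-aside libraries 10 higher, 2 lower and 0 mitochondrial (17.5% and 14.2%). With Winnie-Prolapse replicate 7, the library with the most squamous RNA, also left out there were 9 higher, 1 lower and 0 mitochondrial (11.9% and 7.16%), and the nuclear median was 0.26 and the nuclear share 1.56%. The study's rule, with 1 call (18.3% of all genes), gave 3 without TMM (17.7%), with DESeq2 (16.8%) or in one fit (20.1%), 2 with limma-voom (17.6%) or sex as a covariate (17.7%), and 0 in males (1.76%), in females (1.45%) and without the set-aside libraries (6.23%, or 2.55% without replicate 7 as well). Leaving out each library gave 1 to 6 higher (23.3% to 28.9%), 7 to 28 lower (22.5% to 26.8%), 5 to 8 mitochondrial and 1 to 5 by the study's rule (14.4% to 20.8%). Directions turned in many members: 23 of 77 nuclear members had a positive log2 fold change in the main fit and 59 without the set-aside libraries. Without replicate 7 as well it was 66. Members that turned without the set-aside libraries included Cox6a1 (0.37) and Cox8b (-2.38). Without replicate 7 as well, they included Cox6a1 (0.46), Cox8b (-2.55), Cox4i1 (0.046), Ndufa6 (0.088), Sdhb (0.083), Sdha (0.17) and mt-Nd1 (0.11). In Winnie-Prolapse against Winnie, with 2 higher and 1 lower nuclear members, limma-voom (3.47%), at least 10 counts (4.48%) and males (0 genes) gave 0 higher, and females 1 (8.91%), while sex as a covariate (2.04%) and males gave 0 lower, and females 10 (7.43%). Without the set-aside libraries both were 0, as were nearly all genes (2 of 17602 called, and 0 of 17935 without replicate 7, where 761 had an unadjusted p under 0.05). A mitochondrial gene was lower (1) without TMM (2.89%), with DESeq2 (4.38%), in one fit (5.82%), in females and with the length offset (3.62%), and DESeq2 gave 2 by the study's rule (2.19%). Leaving out each library gave 0 to 3 higher (1.68% to 7.89%), 0 to 1 lower (1.10% to 6.89%) and 0 to 2 mitochondrial. Without the most abundant member of each genome, mt-Co1 and Atp5b, the mitochondrial shares were 3.52%, 3.29% and 2.81% in C57BL/6, Winnie and Winnie-Prolapse, the nuclear shares of the first pair 1.32% and 1.25%, and the ratios 2.68, 2.68 and 2.52. The cause of these shifts was not tested, apart from fewer libraries in the subsets. No paired analysis was possible because the replicate numbers were given in accession order and pair no animals. Low counts limit the 6 mitochondrial genes under 1000 counts, and 5 of these share nearly all their 100-base windows with annotated nuclear copies.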
